A study of Homo sapiens with 12 samples.

Results

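EGR1, EGR2, EGR3, IER2, IER3, IER5, NR4A1, NR4A2, NR4A3 and SRF were followed in EW8 and TC71, a pair of Ewing sarcoma lines. Both were built so that c-Jun and c-Fos, which are among the subunits of AP-1, could be switched on together. The 10 genes were named as immediate early genes other than FOS and JUN, with SRF as the factor that controls many of them, and each was found by its identifier among the 58721 genes of the count table. Every culture carried both parts of a lentiviral system. The Tet3G transactivator was driven by the EF1 alpha promoter, the TRE3G promoter drove c-Jun and c-Fos joined by a self-cleaving peptide, and cells had been selected with geneticin and puromycin. Cells were kept in medium with serum and received doxycycline at 2000 ng/ml or DMSO as vehicle for 72 h, in 4 groups of 3 libraries, 12 in all. The labels give the genotype of the vehicle libraries as WT and that of the doxycycline libraries as AP1_overexpression, although both received the same viruses. No doxycycline-treated cells without the transgenes were used here, so an effect of doxycycline cannot be told apart from one of c-Jun and c-Fos. Nothing says that the replicates came from separate cultures, so p-values measure the spread between these libraries, which may be technical.

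Immediate early genes are transcribed within minutes of a growth factor or serum stimulus, from factors that are already present in the cell, and their RNAs usually decay quickly. SRF binds the CArG box in the promoters of many of them, together with ternary complex factors such as ELK1 and ELK3 or with the actin-regulated MRTF coactivators. FOS and JUN are the best known members of this class. Their proteins form an AP-1 dimer, and other JUN, FOS, ATF and MAF proteins form AP-1 dimers too. The samples were taken at a single late time, so the values say nothing of the first hours of a response.

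The 250 bases before annotated transcription starts were read to show which of these genes carry sequences that SRF, AP-1 and related factors recognise. They came from a reference set of RefSeq promoters on GRCh38.p14, in which 7 of the 10 genes had an entry, with 11 windows in all. EGR3, IER3 and NR4A2 had no entry in that set, so their promoters were not searched. The search covered 4 sequences on both strands. They were the CArG box, the AP-1 element TGANTCA, the cyclic AMP response element TGACGTCA and its part TGACG, which also lies inside the longer element. The windows of EGR1, SRF and EGR2 are shown because they hold CArG boxes, and that of NR4A3 because it holds more copies of TGACG than the other windows. Capitals mark CArG boxes and copies of TGACG on either strand. All 4 are written 5′ to 3′ on the strand of the gene.
EGR1, chr5:138465229-138465478, plus strand: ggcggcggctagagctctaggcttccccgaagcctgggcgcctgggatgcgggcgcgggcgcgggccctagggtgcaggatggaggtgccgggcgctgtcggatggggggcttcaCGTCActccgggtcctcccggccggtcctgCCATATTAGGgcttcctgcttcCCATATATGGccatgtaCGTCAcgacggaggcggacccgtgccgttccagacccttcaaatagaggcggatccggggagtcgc
SRF, chr6:43171019-43171268, plus strand: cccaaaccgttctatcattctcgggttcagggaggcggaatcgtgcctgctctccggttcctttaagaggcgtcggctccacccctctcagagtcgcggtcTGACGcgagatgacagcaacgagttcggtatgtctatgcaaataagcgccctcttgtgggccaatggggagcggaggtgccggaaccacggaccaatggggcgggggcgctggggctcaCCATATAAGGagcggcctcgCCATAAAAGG
EGR2, chr10:62816367-62816616, minus strand: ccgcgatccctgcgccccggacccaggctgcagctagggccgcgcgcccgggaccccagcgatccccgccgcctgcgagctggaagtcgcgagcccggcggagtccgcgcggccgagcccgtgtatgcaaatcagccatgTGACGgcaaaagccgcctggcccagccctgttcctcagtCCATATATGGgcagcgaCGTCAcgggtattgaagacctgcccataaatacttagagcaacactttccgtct
NR4A3, chr9:99821635-99821884, plus strand: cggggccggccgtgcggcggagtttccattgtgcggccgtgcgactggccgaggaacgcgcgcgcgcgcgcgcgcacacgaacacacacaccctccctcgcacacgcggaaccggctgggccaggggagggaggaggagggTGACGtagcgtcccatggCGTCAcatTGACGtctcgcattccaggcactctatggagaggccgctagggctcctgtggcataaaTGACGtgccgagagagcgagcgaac

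The EGR1 window held 2 CArG boxes, whose first bases lay at -105 and -83 from the start, and the SRF window held 2, at -30 and -10. The EGR2 window held 1, at -71. A CArG box was thus present in 3 of the 7 genes and 3 of the 11 windows, against 407 of 35114 promoter windows in the reference set (1.16%). TGACG was present in 5 of the 7 genes, with 4 copies before NR4A3 (at -109, -91, -83 and -25), 2 before EGR1, 2 before EGR2, 1 before SRF and 1 before IER2. It was present in 21.2% of all windows. That share is per window and the count is of genes, some of which had more than 1 window, so they are not like measures. The AP-1 element TGANTCA was found in 0 of the 11 windows and in 6.57% of all windows, and TGACGTCA in 0 and in 1.65%. A match is a run of letters and was not tested for binding. IER5 and NR4A1 held none of the 4 sequences in the windows read.

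**Figure D1:**
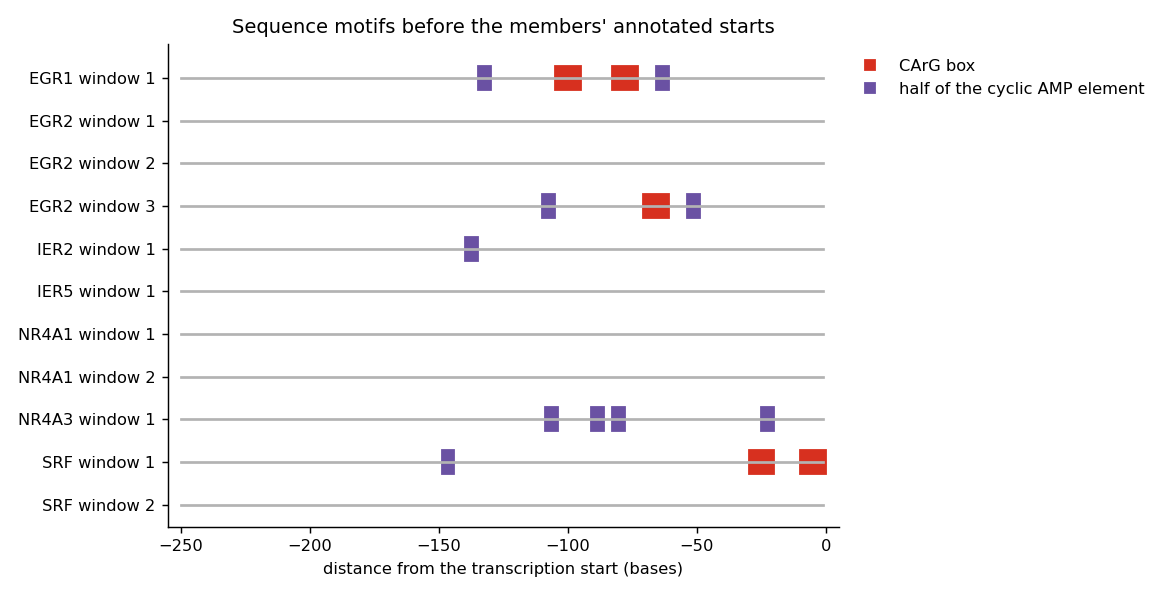
Positions of sequence motifs in the 11 RefSeq promoter windows of 7 genes, as distance in bases from the annotated start. Red blocks are CArG boxes, found before EGR1, EGR2 and SRF, and purple blocks are copies of TGACG, of which the NR4A3 window holds 4.

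Total counts ran from 42860665 to 60853649 per library, and all 10 genes passed the filter on low counts. Levels are given as CPM, counts divided by the scaled size of the library. The induced genes checked the labels: JUN was at 18.04 to 25.4 CPM in the 6 vehicle libraries and at 422 to 814 CPM in the 6 doxycycline libraries, and FOS at 11.2 to 37.6 CPM and 999 to 1686 CPM. All 6 Ewing sarcoma markers examined were above the floor of 6 counts in every group, at unequal levels with and without doxycycline. Doxycycline libraries were all above vehicle for CD99 in both lines (means 807 and 1243 CPM in EW8) and for NR0B1 in TC71 (116 and 151 CPM). They were all below vehicle for PRKCB (258 and 147 CPM in EW8, 325 and 203 CPM in TC71) and CCND1 (1420 and 975 CPM, 1425 and 1114 CPM) in both lines, for NKX2-2 in EW8 (42.6 and 26.3 CPM) and for STEAP1 in TC71 (162 and 131 CPM). In EW8 the leukocyte marker PTPRC was at 59.6 to 77.4 CPM while CD3E and CD68 were at most 0.322 CPM in any EW8 library. The summed endothelial markers PECAM1 and VWF moved with doxycycline, from 6.49 to 8.05 CPM up to 35.2 to 43.1 CPM in EW8 and from 0 to 3.51 to 4.51 CPM in TC71. The epithelial sum (EPCAM and CDH1) was 0.240 to 0.496 CPM and 0.286 to 0.593 CPM in EW8 vehicle and doxycycline, and 0.229 to 1.19 CPM and 11.3 to 12.6 CPM in TC71. The fibroblast sum (PDGFRA and LUM) was 0.736 to 1.62 CPM and 2.43 to 2.69 CPM in EW8, and 6.39 to 8.58 CPM and 5.26 to 5.96 CPM in TC71, with its 2 genes apart. PDGFRA had means of 0.837 and 2.48 CPM in EW8 and of 4.07 and 4.47 CPM in TC71, where the libraries overlapped, and LUM was below vehicle in both lines (0.487 and 0.0873 CPM, 3.66 and 1.16 CPM). The part of these markers in the results was not tested. TC71 vehicle replicate 1 stood apart, with a root mean square log2 distance of 0.33 and 0.345 to its replicates, against 0.135 to 0.207 for the other 10 pairs, and values without it are given below where it matters.

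Doxycycline had unlike effects on the 10 genes, and 4 of them rose more than 2-fold in EW8 while 2 did in TC71. IER3 had the largest change among them in both lines, EGR1 moved in opposite directions, and NR4A1 did not pass the test in either line. A gene is said to have risen or fallen where the adjusted p was under 0.05 by edgeR's quasi-likelihood test with Benjamini-Hochberg adjustment over 21013 genes, and is called where the log2 fold change was also beyond 1. In EW8, 4 of 10 genes were called higher (EGR1, IER3, IER5 and NR4A2) and 0 lower, against 11.4% and 3.38% of all genes tested. At an unadjusted p under 0.05 1 gene, NR4A3, was lower, and DESeq2 also called 0 lower. In TC71, 2 of 10 were called higher (IER3 and NR4A2) and 1 lower (EGR1), against 12.3% and 3.67%. By adjusted p alone 7 rose and 0 fell in EW8, against 21.9% and 22% of all genes, and 6 rose and 1 fell in TC71, against 25.1% and 20.4%. The median log2 fold change of the 10 genes was 0.80 in EW8 and 0.43 in TC71, and that of all genes was -0.03 and 0. In bulk RNA a change in RNA per cell and a change in the share of cells that express a gene cannot be told apart.

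**Figure D2:**
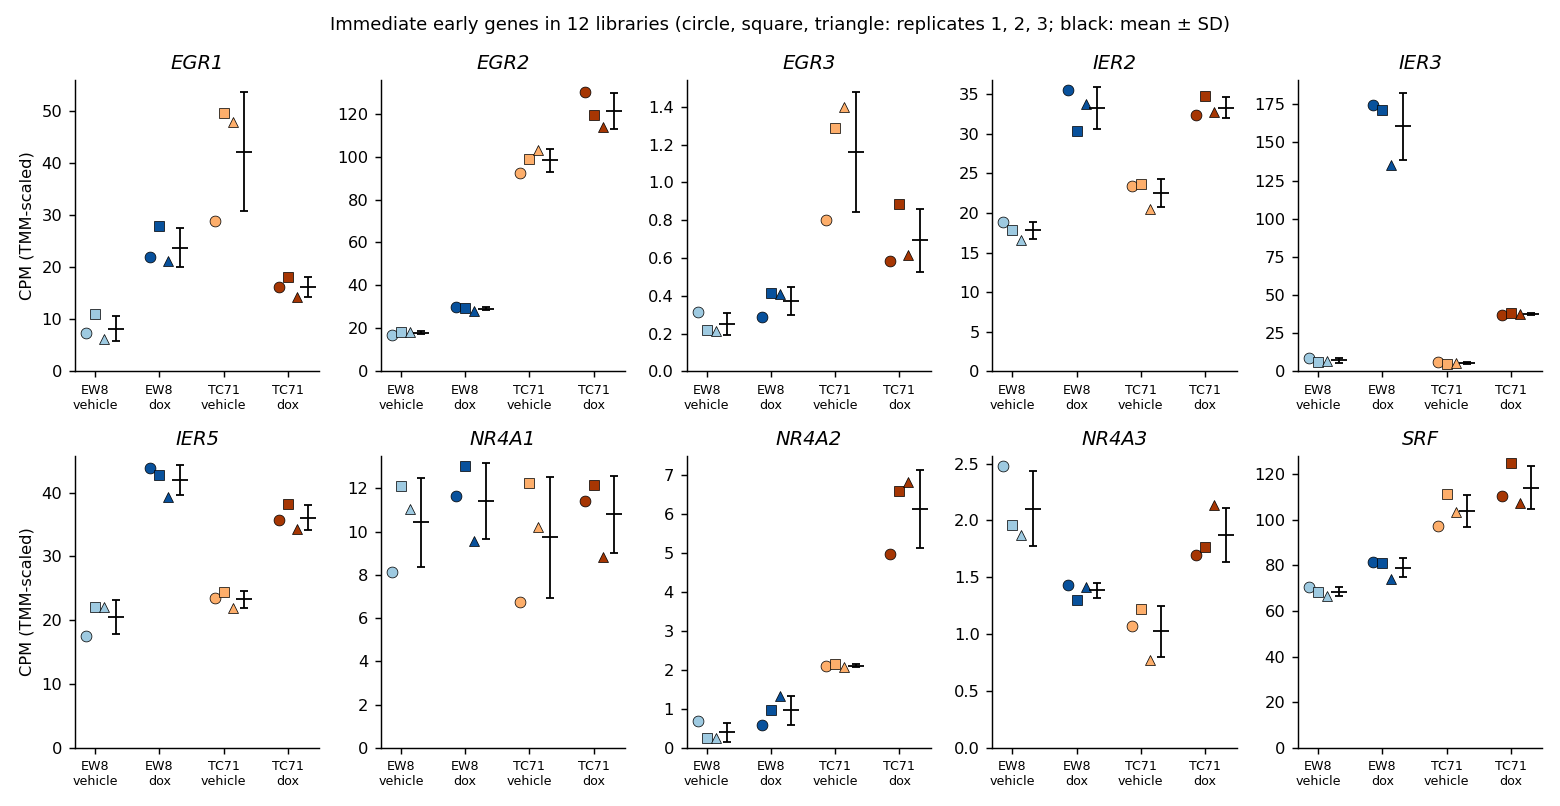
Level of each of the 10 genes in CPM (vertical axis, linear, from 0) in the 4 groups, with 1 symbol per library and the mean ± SD of 3 libraries in black. IER3 reaches 135 to 175 CPM in EW8 with doxycycline and 36.9 to 38.4 CPM in TC71, EGR1 is higher with doxycycline in EW8 and lower in TC71, and the NR4A1 libraries overlap in all 4 groups.

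The EGR genes encode zinc finger transcription factors that bind GC-rich sequences, and EGR1 (chr5:138465490-138469315, plus strand, hg38) is the one most used as a readout of signalling through SRF and the ternary complex factors. EGR1 was at 7.44, 10.98 and 6.22 CPM in EW8 vehicle replicates 1, 2 and 3 and at 21.95, 28 and 21.2 CPM with doxycycline. In TC71 it was at 28.97, 49.7 and 47.8 CPM with vehicle and at 16.2, 18.2 and 14.3 CPM with doxycycline. The doxycycline libraries were all above vehicle in EW8 and all below vehicle in TC71, without overlap. EGR1 thus rose 2.89-fold in EW8 (1.53 ± 0.205 SE on the log2 scale, adjusted p = 6.71e-06) and fell 2.60-fold in TC71 (-1.38 ± 0.198, adjusted p = 1.32e-05) by edgeR's quasi-likelihood test. The difference of the 2 responses, TC71 minus EW8, was -2.91 on the log2 scale (SE 0.285, adjusted p = 6.88e-07, edgeR). EGR1 began from unequal levels, since with vehicle it was higher in TC71 by 2.36 (log2, adjusted p = 1.25e-08), and with doxycycline the log2 difference was -0.55 (adjusted p = 0.0227). That last difference did not pass the test with DESeq2 (adjusted p = 0.065) or without EW8 doxycycline replicate 2, TC71 doxycycline replicate 1 or TC71 doxycycline replicate 3 (0.117, 0.0578 and 0.0922). TC71 vehicle replicate 1 was the lowest of its group for EGR1, and without it the TC71 log2 fold change was -1.67 and the difference of the responses -3.25.

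EGR2 (chr10:62811996-62919900, minus strand, hg38), a factor of the same family known for hindbrain and Schwann cell development, was more even between replicates. It was at 17.1 to 18.5 CPM in EW8 vehicle and 28.3 to 30.1 CPM in EW8 doxycycline libraries. In TC71 it was at 92.5 to 103 CPM with vehicle and 114 to 130 CPM with doxycycline. Doxycycline libraries were above vehicle in both lines, and all TC71 libraries were above all EW8 libraries. EGR2 rose by a log2 fold change of 0.70 in EW8 (SE 0.0711, adjusted p = 2.22e-07, edgeR) and of 0.30 in TC71 (adjusted p = 0.00103), a difference of -0.40 (adjusted p = 0.00705). Without TC71 vehicle replicate 1 the TC71 value was 0.18 (adjusted p = 0.0312). The gap between the lines was larger than either response, 2.44 (log2) with vehicle and 2.05 with doxycycline (adjusted p = 3.61e-15 and 2.95e-14).

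EGR3, which acts in lymphocytes and in muscle spindle development, was near the lower end of what these libraries measure. Its counts were 14, 10 and 12 in EW8 vehicle, 16, 21 and 18 in EW8 doxycycline, 42, 80 and 72 in TC71 vehicle and 24, 37 and 27 in TC71 doxycycline. The vehicle and doxycycline ranges overlapped in both lines when scaled to CPM. The log2 fold change was 0.57 in EW8 (95% interval -0.40 to 1.53) and -0.74 in TC71 (-1.61 to 0.12), and neither passed the test, nor did their difference of -1.31 (adjusted p = 0.354, 0.156 and 0.16, edgeR). Both intervals span rises and falls, so neither a change nor its absence was shown at these counts. With at least 10 counts required in every library, the TC71 value of -0.79 passed narrowly (adjusted p = 0.0481). With vehicle, EGR3 was higher in TC71 by 2.21 (log2, adjusted p = 0.00027). Its exons share 164 bases (3.38%) with a gene on the opposite strand, and reads on both were not counted.

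Per kb of exon, EGR1 and EGR2 made up nearly all of the EGR level, with EGR3 under 1% in every library. The length counts every annotated exon base of a gene, so levels per kb compare genes only roughly. EGR1 held 34.2% ± 6.38 (SD, n = 3) of the summed EGR level in EW8 with vehicle and 48.3% ± 3.73 with doxycycline. In TC71 it held 32.9% ± 5.37 and 13.6% ± 1.35. The lines therefore had a like EGR1 share with vehicle and shares that moved apart with doxycycline. The summed level went from 7.55 ± 0.875 to 15.6 ± 1.25 CPM per kb in EW8 and from 40.3 ± 5.02 to 38.1 ± 2.57 CPM per kb in TC71.

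**Figure D3:**
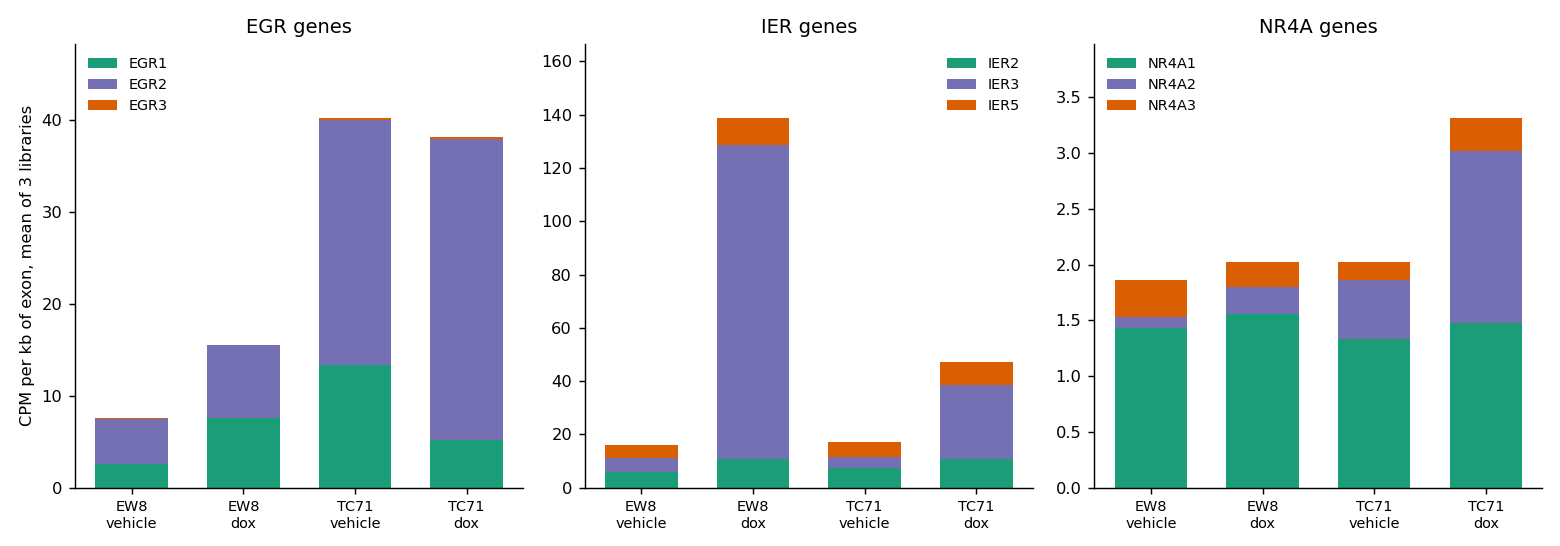
Mean level per kb of exon (CPM per kb, linear axis from 0, mean of 3 libraries, no error drawn) of the EGR, IER and NR4A genes, stacked within each of the 4 groups. EGR1 grows within the EGR sum in EW8 and shrinks in TC71, IER3 makes up 84.9% of the IER sum in EW8 with doxycycline and 58.8% in TC71, and NR4A2 reaches 46.4% of the NR4A sum in TC71 with doxycycline.

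The 3 IER genes share a name from their early induction and encode unlike proteins: IER2 and IER5 are related nuclear proteins, and IER3 is a small membrane-anchored protein known for effects on survival and NF-kappaB and ERK signalling. IER3 (chr6:30743199-30744554, minus strand, hg38) was at 8.89, 5.84 and 6.86 CPM in EW8 vehicle and at 175, 171 and 135 CPM in EW8 doxycycline libraries. In TC71 it was at 6.03, 5.15 and 5.61 CPM with vehicle and at 36.9, 38.4 and 37.6 CPM with doxycycline. Every doxycycline library was far above every vehicle library, and the TC71 doxycycline libraries agreed within a coefficient of variation of 1.94%. IER3 rose 22.3-fold in EW8 (4.48 ± 0.131 SE on the log2 scale, adjusted p = 4.42e-15) and 6.73-fold in TC71 (2.75 ± 0.127, adjusted p = 2.58e-12) by edgeR's quasi-likelihood test. The rise was smaller in TC71 by a log2 difference of -1.73 (SE 0.174, adjusted p = 9.37e-07). With vehicle the lines were close, at a log2 difference of -0.36 (TC71 minus EW8, adjusted p = 0.0254), and with doxycycline it was -2.09 (adjusted p = 1.71e-11). The vehicle difference did not pass in 8 of 20 alternatives, among them the fit of only the groups compared (adjusted p = 0.136) and those without any 1 of the TC71 vehicle libraries, without EW8 vehicle replicate 1 or 3 or without EW8 doxycycline replicate 1 or 2 (0.0508 to 0.211). IER3 exons share 359 of 1356 bases (26.5%) with IER3-AS1 on the opposite strand, and reads on both genes were not counted.

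IER2 (chr19:13150415-13154908, plus strand) and IER5 (chr1:181088712-181092899, plus strand) moved less and in both lines the same way. IER2 was at 16.7 to 18.9 CPM in EW8 vehicle and 30.4 to 35.6 CPM in EW8 doxycycline libraries, and at 20.6 to 23.6 CPM and 32.3 to 34.8 CPM in TC71. Its doxycycline libraries were above vehicle in both lines, and both lines ended at about the same level, 33.3 ± 2.62 CPM in EW8 and 33.3 ± 1.35 CPM in TC71. IER2 rose by a log2 fold change of 0.90 in EW8 (adjusted p = 1.91e-07, edgeR) and of 0.56 in TC71 (adjusted p = 4.36e-05), and the difference of -0.34 did not pass the test (adjusted p = 0.0723, edgeR). That difference lay close to the threshold, and it passed in 8 of 19 alternatives, among them DESeq2 (-0.38, adjusted p = 0.0196) and the fit without TC71 vehicle replicate 1 (-0.44, adjusted p = 0.013). Its exons share 946 of 3072 bases (30.8%) with a gene on the opposite strand.

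IER5, which takes part in the heat shock response through HSF1, was at 17.5 to 22.1 CPM and 39.3 to 43.9 CPM in EW8 vehicle and doxycycline, and at 21.9 to 24.5 CPM and 34.4 to 38.2 CPM in TC71. The groups did not overlap in either line. It rose by a log2 fold change of 1.03 in EW8 (adjusted p = 6.05e-08, edgeR) and 0.63 in TC71 (adjusted p = 2.14e-05), with a difference of -0.40 (adjusted p = 0.0436). The EW8 rise lay on the fold limit, at 0.93 without EW8 vehicle replicate 1 and 0.97 with library size alone. The difference did not pass in 5 of 19 alternatives, which were those without EW8 vehicle replicate 1, TC71 vehicle replicate 2, TC71 doxycycline replicate 1 or TC71 doxycycline replicate 3 and that with a replicate block (adjusted p = 0.121, 0.0965, 0.0944, 0.104 and 0.0598). Per kb, IER2, IER3 and IER5 stood at 36.2%, 33.0% and 30.8% of their sum in EW8 with vehicle and at 7.87%, 84.9% and 7.25% with doxycycline. In TC71 the same 3 shares were 43.1%, 24.3% and 32.6%, then 22.9%, 58.8% and 18.3%. The lengths used include the bases that IER2 and IER3 share with other genes, where reads were not counted.

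The NR4A genes encode orphan nuclear receptors that act without a known ligand and are governed mainly by their own transcription. NR4A1 (chr12:52022832-52059507, plus strand), or Nur77, was at 8.14, 12.1 and 11.1 CPM in EW8 vehicle and 11.7, 13.04 and 9.55 CPM in EW8 doxycycline libraries. In TC71 it was at 6.72, 12.3 and 10.2 CPM with vehicle and 11.4, 12.2 and 8.81 CPM with doxycycline. The 4 groups overlapped. The log2 fold change was 0.13 in EW8 (95% interval -0.29 to 0.55, adjusted p = 0.647) and 0.15 in TC71 (-0.27 to 0.57, adjusted p = 0.599) by edgeR. The EW8 value was -0.02 without EW8 vehicle replicate 1 and the TC71 value -0.14 without TC71 vehicle replicate 1, so neither has a settled sign. NR4A1 exons share 754 bases (10.3%) with NR4A1AS on the opposite strand.

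NR4A2 (chr2:156324432-156342348, minus strand), or Nurr1, known for dopaminergic neurons, was low in EW8 and higher in TC71. Its counts were 30, 12 and 14 in EW8 vehicle and 32, 49 and 58 in EW8 doxycycline libraries, and their CPM values overlapped. In TC71 it was at 2.10, 2.14 and 2.06 CPM with vehicle and at 4.97, 6.57 and 6.83 CPM with doxycycline, without overlap. NR4A2 rose in TC71 by a log2 fold change of 1.54 (adjusted p = 0.000435, edgeR). In EW8 the log2 fold change was 1.27 (adjusted p = 0.0107), and that rise was lost when vehicle replicate 2, vehicle replicate 3 or doxycycline replicate 3 was left out (adjusted p = 0.0541, 0.056 and 0.0601), while it was 1.87 without vehicle replicate 1 (adjusted p = 0.000946). The difference of the responses was 0.27 and did not pass the test (adjusted p = 0.792). TC71 was above EW8 by 2.42 (log2) with vehicle and 2.69 with doxycycline (adjusted p = 1.26e-05 and 1.11e-06).

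NR4A3 (chr9:99821855-99866891, plus strand), or NOR1, was the other gene besides EGR1 whose fitted change had opposite signs where the difference passed the test. Its counts were 110, 90 and 104 in EW8 vehicle, 80, 66 and 62 in EW8 doxycycline, 56, 76 and 40 in TC71 vehicle and 70, 74 and 94 in TC71 doxycycline libraries. After scaling, the EW8 doxycycline libraries (1.30 to 1.43 CPM) were all below vehicle (1.87 to 2.48 CPM), and the TC71 doxycycline libraries (1.70 to 2.14 CPM) all above vehicle (0.776 to 1.22 CPM). The log2 fold change was -0.60 in EW8, which did not pass the test (adjusted p = 0.08, edgeR), and NR4A3 rose by 0.86 in TC71 (adjusted p = 0.0146). The TC71 value did not pass with no filter on low counts (adjusted p = 0.0545) or without TC71 vehicle replicate 3 or TC71 doxycycline replicate 3 (0.0855 and 0.0571), and it was past the fold limit without TC71 vehicle replicate 2 (1.02). The difference of the responses was 1.47 (SE 0.382, adjusted p = 0.0107), the reverse of that of EGR1. With vehicle NR4A3 was lower in TC71, at a log2 difference of -1.03 (adjusted p = 0.00284). That value lay on the fold limit and was not called with at least 10 counts in every library (-0.985), with counts halved (-0.995), or without EW8 vehicle replicate 1, EW8 doxycycline replicate 1 or 2 or TC71 vehicle replicate 1 or 3 (-0.952 to -0.842).

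Per kb the NR4A sum was small, at 1.86 ± 0.177 CPM per kb in EW8 vehicle, 2.03 ± 0.193 in EW8 doxycycline, 2.02 ± 0.398 in TC71 vehicle and 3.32 ± 0.265 in TC71 doxycycline libraries. NR4A1 made up 76.3% ± 8.45 of it in EW8 with vehicle and 77.1% ± 6.04 with doxycycline. In TC71 NR4A1 went from 65% ± 7.06 to 44.7% ± 7.04, while NR4A2 went from 26.8% ± 5.29 to 46.4% ± 6.08. In TC71 with doxycycline the 2 receptors were thus at about the same level per kb, 1.48 and 1.54 CPM per kb. That likeness depends on the exon lengths used, 7295 bases for NR4A1 and 3967 for NR4A2. Before division by length they were at 10.8 and 6.12 CPM.

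SRF (chr6:43171299-43181507, plus strand), the MADS-box factor that binds the CArG box and is itself an early gene with CArG boxes before its start, had the highest level per kb among the 10 genes in EW8 with vehicle (16.3 CPM per kb). It was at 70.7, 68.2 and 66.7 CPM in EW8 vehicle and 81.6, 81.2 and 74.3 CPM in EW8 doxycycline libraries. In TC71 it was at 97.4, 112 and 103 CPM with vehicle and 110, 125 and 107 CPM with doxycycline. The EW8 groups did not overlap and the TC71 groups did. SRF rose by 0.21 (log2) in EW8 (adjusted p = 0.023, edgeR, but 0.0814 with library size alone and 0.0578 without EW8 vehicle replicate 2), and in TC71 its value of 0.13 did not pass the test (adjusted p = 0.13), with a difference of -0.07 (adjusted p = 0.701). The lines differed by more than this, by 0.60 with vehicle and 0.53 with doxycycline (log2, TC71 higher, adjusted p = 5.38e-07 and 2.61e-06). Without TC71 vehicle replicate 1 the TC71 response was 0.01.

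**Figure D4:**
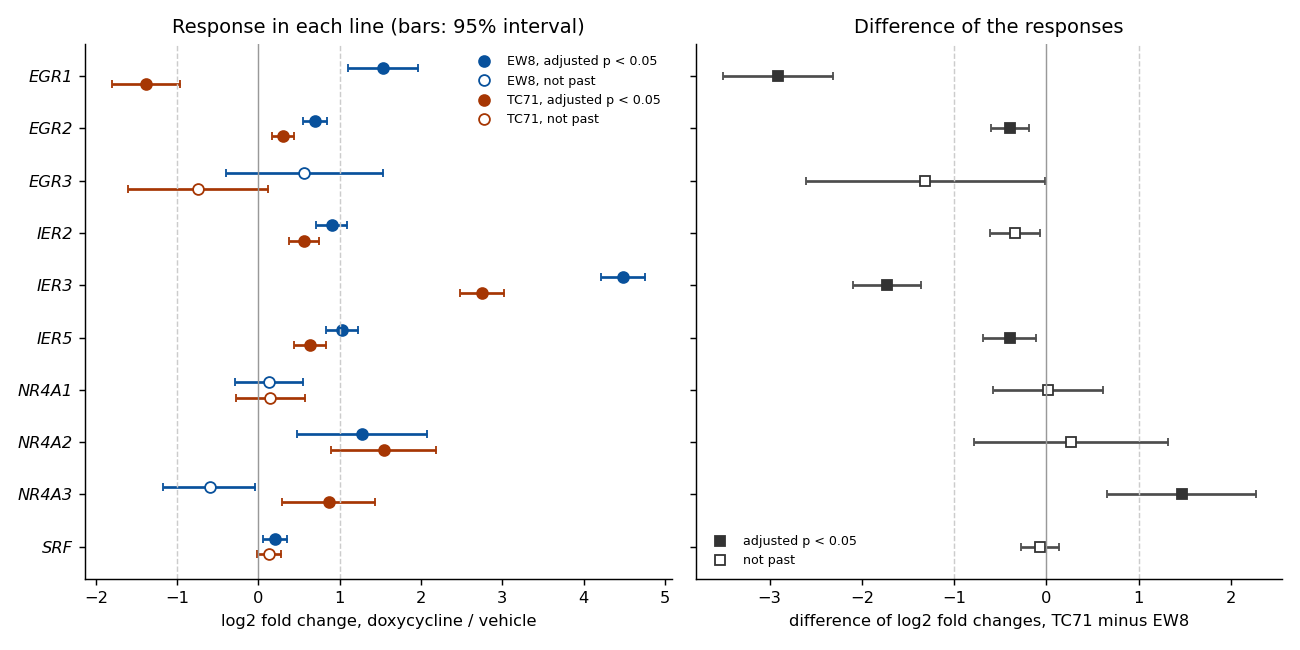
Left, log2 fold change of each gene with doxycycline against vehicle in EW8 (blue) and TC71 (orange), with 95% intervals from the edgeR fit, and right, the difference of the 2 responses, TC71 minus EW8. Filled symbols passed an adjusted p of 0.05 and dashed lines mark a log2 fold change of 1, so EGR1 lies on opposite sides at 1.53 and -1.38 and IER3 is the farthest right at 4.48 and 2.75.

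Set together, the doxycycline libraries lay wholly above vehicle for 6 of the 10 genes in EW8 and 6 in TC71, wholly below for 1 in each line (NR4A3 in EW8, EGR1 in TC71) and overlapped for 3. Over all genes tested the shares above were 26.9% in EW8 and 27.6% in TC71, and those below 29.1% and 23.1%. The difference of the responses was called for 3 genes, higher in TC71 for 1 (NR4A3) and lower for 2 (EGR1 and IER3), against 4.18% and 2.87% of all genes. Between the lines with vehicle, 4 genes were called higher in TC71 (EGR1, EGR2, EGR3 and NR4A2) and 1 lower (NR4A3), against 11.6% and 18.9% of all genes. With doxycycline 2 were called higher (EGR2 and NR4A2) and 1 lower (IER3), against 12.6% and 18.4%. By adjusted p alone the difference passed upward for 1 gene and downward for 4, against 12.2% and 7.07% of all genes, and TC71 was above EW8 for 6 genes and below for 2 with vehicle (28.2% and 33.5%) and above for 3 and below for 3 with doxycycline (30.2% and 32.3%). Of the 3 below with doxycycline, IER5 lay at the threshold (log2 difference -0.22, adjusted p = 0.0486, edgeR) and did not pass in 6 of 20 alternatives: no filter on low counts (0.0557) and without EW8 doxycycline replicate 1 or 2 (0.118 and 0.094), TC71 vehicle replicate 2 (0.0527) or TC71 doxycycline replicate 1 or 3 (0.117 and 0.153). EGR1 did not pass in 4 of 20. These comparisons share libraries and are not independent of one another.

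The order of the 4 groups differed from gene to gene. EGR2, NR4A2 and SRF ran from EW8 vehicle through EW8 doxycycline and TC71 vehicle to TC71 doxycycline, although the SRF groups of TC71 and the NR4A2 groups of EW8 overlapped. EGR1 ran from EW8 vehicle through TC71 doxycycline and EW8 doxycycline to TC71 vehicle. IER3 ran from TC71 vehicle through EW8 vehicle and TC71 doxycycline to EW8 doxycycline, and its 2 vehicle groups overlapped. EGR3 ran from EW8 vehicle through EW8 doxycycline and TC71 doxycycline to TC71 vehicle, with overlap within each line. IER2 and IER5 were lowest in EW8 vehicle, then in TC71 vehicle, and their doxycycline groups were highest, with overlapping IER5 vehicle groups and overlapping IER2 doxycycline groups. NR4A3 was lowest in TC71 vehicle and highest in EW8 vehicle, where it overlapped TC71 doxycycline. The order of group means was the same for 9 of the 10 genes with median-ratio scaling, for 8 with library size alone and for 8 to 10 when 1 library was left out. Among all genes tested, those with the most similar profile over the 12 libraries, by the root mean square difference of centred log2 levels, were TSPAN13 (0.141) and LYSMD2 (0.149) for EGR2, DZANK1 (0.253) and FCGRT (0.275) for EGR3, and GALNT12 (0.272) and SLC26A9 (0.309) for IER3. For NR4A2 they were EML6 (0.391) and PAG1 (0.406). EGR1 had no gene closer than 0.421, that of an unnamed gene, and the next was SDCBP2-AS1 (0.44). The other 5 genes spanned less than the 4-fold range for which neighbours were sought.

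The genes around these 10 were taken as 4 lists, chosen with earlier results of these data known, as the processing notes describe. Their counts and medians describe the genes listed and are no test of a class of genes. Of 8 AP-1 genes tested, 7 were called higher in EW8 and 5 in TC71, with 0 lower in either. Over all genes, 11.4% in EW8 and 12.3% in TC71 were called higher, and 3.38% and 3.67% lower. The count of AP-1 genes includes JUN and FOS, which the design itself induced. FOSL1, which encodes Fra-1, rose by a log2 fold change of 6.86 in EW8 and 5.54 in TC71, and FOSL2, which encodes Fra-2, by 5.64 and 3.13. Counts for JUN and FOS hold transgene and endogenous reads alike and gave 4.46 and 4.87 in EW8 and 5.19 and 7.08 in TC71. Among 27 other immediate early genes tested, 22 were called higher and 0 lower in EW8, and 18 higher and 2 lower in TC71 (BTG2 and DUSP4), against 11.4% and 3.38% of all genes in EW8 and 12.3% and 3.67% in TC71, with medians of 1.84 and 1.72 beside 0.80 and 0.43 for the 10 genes. CSRNP1 (2.98 and 3.34), the phosphatase gene DUSP5 (2.98 and 4.28), the clock-linked repressor gene BHLHE40 (2.93 and 2.36) and PPP1R15A (2.79 and 2.36), which encodes a regulator of eIF2 alpha phosphatase, were the named ones that rose in both lines. DUSP4, another phosphatase gene, rose by 1.65 in EW8. In TC71 its counts were 10 to 46 with vehicle and 2 to 4 with doxycycline, at least 2.92-fold lower against the floor of 6 counts per library. That bound was 1.77-fold without TC71 vehicle replicate 2, which held the 46 counts.

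Of 21 SRF and MRTF target genes tested, most of them cytoskeletal, 6 were called higher in EW8 and 12 in TC71 and 0 lower in either. Over all genes, 11.4% in EW8 and 12.3% in TC71 were called higher, and 3.38% and 3.67% lower. By adjusted p alone 17 rose and 1 fell in EW8 (CNN2), against 21.9% and 22% of all genes, and 17 rose and 2 fell in TC71 (CNN2 and FHL1), against 25.1% and 20.4%. The median was 0.88 in EW8 and 1.25 in TC71, or 1.21 with TGFB1I1 set to its bound. FHL2, a LIM-domain protein gene, rose by 4.99 in EW8 and 5.93 in TC71, TAGLN2 by 2.40 and 2.21, the nonmuscle myosin heavy chain gene MYH9 by 2.12 and 1.99, and CNN1, which encodes calponin, by 1.88 and 2.80. The TC71 value of CNN1 rests on 0 to 10 counts with vehicle and 14 to 32 with doxycycline, and it was 2.19 without TC71 vehicle replicate 1 and 3.87 without TC71 vehicle replicate 2. TGFB1I1 rose by 1.49 in EW8 and was at 0 counts in the TC71 vehicle libraries and at 8 to 16 with doxycycline, at least 2.32-fold higher against the floor of 6 counts per library and 1.72-fold without TC71 doxycycline replicate 2. ACTA2, the smooth muscle actin gene, did not pass the test in either line (0.35 and 0.18).

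Of 12 co-factors and paralogs tested, 2 were called higher in EW8 (ELK3 and IER5L) and 3 in TC71 (the same and MRTFA), with 0 lower. Over all genes, 11.4% in EW8 and 12.3% in TC71 were called higher, and 3.38% and 3.67% lower. By adjusted p alone 4 rose and 4 fell in each line, against 21.9% and 22% of all genes in EW8 and 25.1% and 20.4% in TC71. ELK3, a ternary complex factor, rose by a log2 fold change of 2.26 in EW8 and 1.35 in TC71, whereas ELK1 fell by 0.22 and 0.55 and ELK4 did not pass the test (-0.08 and -0.06). MRTFA, an SRF coactivator, rose by 0.55 and 1.01, and IER5L, a paralog of IER5, rose by 1.36 and 1.58. NAB1 and NAB2 encode corepressors that bind EGR proteins. NAB1 rose by 0.93 in EW8 and fell by 0.49 in TC71, the same 2 directions as EGR1, and NAB2 fell by 0.47 and 0.71.

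**Figure D5:**
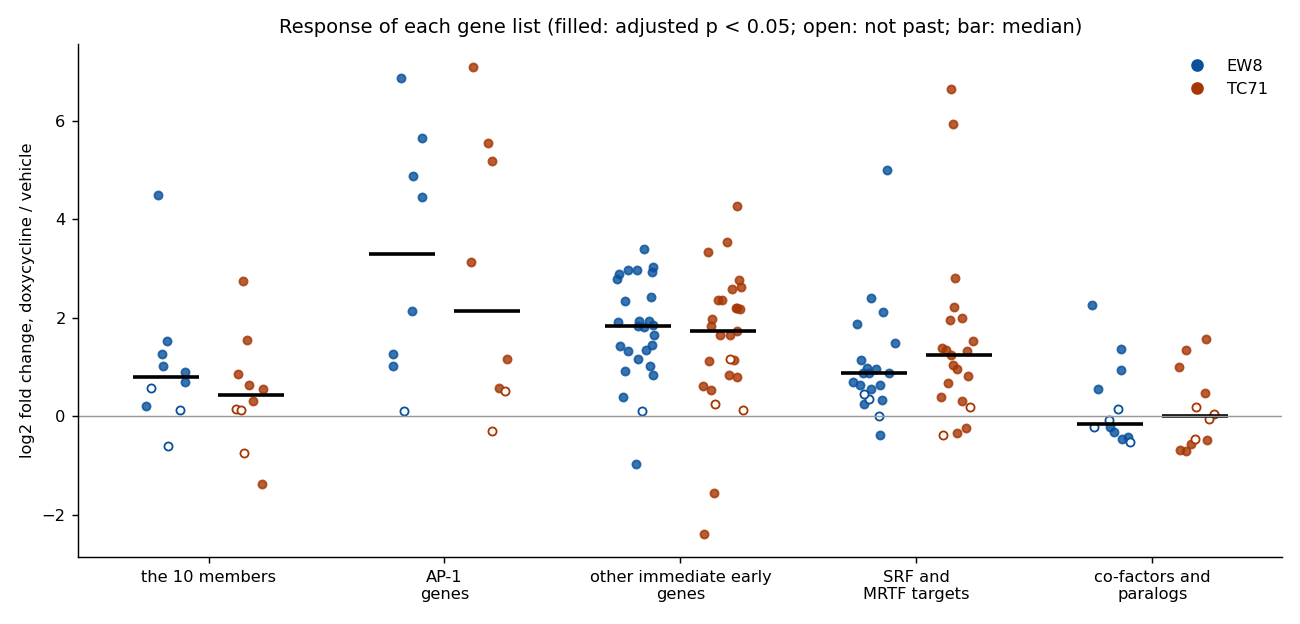
Log2 fold change with doxycycline against vehicle of each tested gene in the 10 genes described here and 4 related lists, EW8 in blue and TC71 in orange, with filled symbols past an adjusted p of 0.05 and a bar at the median. The medians of the 10 genes (0.80 and 0.43) lie below those of the other immediate early genes (1.84 and 1.72). The AP-1 genes include the induced JUN and FOS. The largest change is that of FOSL1 in EW8 (6.86) and that of the induced FOS in TC71 (7.08). In TC71 FHL2 (5.93), an SRF and MRTF target, lies above FOSL1 (5.54). The 10 genes and the lists were chosen with earlier results of these data known. The TC71 values of TGFB1I1 (6.64) and DUSP4 (-2.39) are fitted against groups at the floor.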

How the data were processed

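Polyadenylated RNA was sequenced from 12 libraries of EW8 and TC71 cells. Per the file headers and the methods, the authors aligned read pairs to hg38 with STAR and assigned them to exons of GENCODE release 29 genes with featureCounts 2.0.1, and the deposited values were raw counts. The counter was run without pair, strand, multi-mapping or overlap settings, so each mate counted singly and reads on more than 1 gene were left out. The deposited table also gave exon length, used for levels per kb. It covers every annotated exon base of a gene, including bases shared with other genes. Symbols were matched for 58252 of 58721 genes (99.2%).

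Counts were tested with edgeR 4.0.16 in R 4.3.3 (filterByExpr, 21013 genes tested, TMM scaling, glmQLFit and glmQLFTest on all 12 libraries, 4 groups), with Benjamini-Hochberg adjustment over all genes tested. Called genes had an adjusted p under 0.05 and a log2 fold change beyond 1 in either direction. The SE was the absolute log2 fold change divided by the square root of F, and 95% intervals used the residual and prior degrees of freedom. The floor was 6 counts per library (3 read pairs) and covers counting error only. Scripts were tested on simulated data. The members, the 4 related lists and the markers were chosen with earlier results of these data known. The named genes were the 10 members, JUN and FOS, and from each list the genes called in the same direction in both lines, up to 4 per direction by the smaller of the 2 changes, and the one whose responses differed most between lines. Other list genes such as ACTA2, BTG2, CNN2, FHL1, ELK1, ELK4, MRTFA and NAB2 were chosen after their values were seen. Neighbours of a gene were sought where its level spanned more than 2 on the log2 scale. Replicates with the same number showed no common deviation, which does not exclude that they were paired. The alternatives were median-ratio scaling, library size alone, no filter, at least 10 counts in every library, DESeq2 1.42.0, a replicate block, only the groups compared, counts halved, no fold limit and leaving out each library in turn. Bounds against the floor without each library were added after seeing the data. Promoters came from RefSeq on GRCh38.p14, whose coordinates were not mixed with those of the count table.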

Additional observations from a re-analysis of the deposited data

Results flagged for a closer look

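The interaction term of the edgeR fit compares the responses of the 2 lines. It passed for 17 of the named genes (adjusted p under 0.05 over 21013 genes), among them TGFB1I1, for which a difference is not shown. Over all genes tested it passed upward for 12.2% and downward for 7.07%. FOSL2, TGFB1I1, NAB1 and DUSP4 were named for the largest called difference of their list, so their passing was fixed by that choice. The count of 17 is therefore no result about the named genes as a set. The value given is the log2 response of TC71 minus that of EW8. Among the 10 immediate early genes the term passed for EGR1 (-2.91), IER3 (-1.73), EGR2 (-0.40) and IER5 (-0.40), all lower in TC71, and for NR4A3 (1.47), which was higher. Of these 5, only EGR1 rose in one line and fell in the other. NR4A3 rose in TC71 and did not pass the test in EW8.

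The same term differed for the induced genes JUN (0.73) and FOS (2.21), whose counts hold transgene and endogenous reads alike. FOS began lower in TC71, at 11.2 to 12.1 CPM against 35.9 to 37.6 CPM in EW8, a log2 difference of -1.65. With doxycycline TC71 was above EW8 by 0.55 for FOS and 0.67 for JUN (log2). The term is therefore no measure of the transgene RNA alone. The part of JUN and FOS in the differences above was not tested. In the related lists the difference was positive for FHL2 (0.93) and DUSP5 (1.30) and negative for FOSL1 (-1.31), FOSL2 (-2.50), ELK3 (-0.91), BHLHE40 (-0.57), PPP1R15A (-0.44) and NAB1 (-1.42). For TGFB1I1 (5.15) and DUSP4 (-4.03) a TC71 group was at the floor, so the fitted difference depends on the prior count and is no bound. Against the floor the TC71 change of TGFB1I1 was at least 1.21 on the log2 scale, below its EW8 rise of 1.49, so neither a difference nor its direction is established for that gene.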

How the results depend on the processing

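Results of the 10 immediate early genes under the alternatives were compared with the main fit. Of them, 977 kept their direction and their call, 17 became called, 12 were no longer called and 34 reversed. The alternative with no limit on the fold change recomputed no value and changed only the rule for a call. Most of the 17 came from it. Among the other named genes IER5L reversed too, in 2 cases. None of the reversed results passed the test in the main fit. For NR4A1 and IER2 the main values lay near 0. The differences of the responses of NR4A2 (0.27, SE 0.499) and IER5L (0.22, SE 0.432) were larger but imprecise. For NR4A1 the difference of the responses was -0.0276 with median-ratio scaling, -0.0202 with library size alone, -0.0938 with at least 10 counts in every library, -0.0254 with DESeq2 and -0.0862 with counts halved, and -0.32 to 0.22 when 1 library was left out. Leaving out 1 library gave NR4A1 -0.0185 to 0.286 in EW8, -0.14 to 0.35 in TC71, -0.30 to 0.22 between lines with vehicle and -0.266 to 0.0451 with doxycycline. The same step gave a difference of the responses of -0.33 to 0.48 for NR4A2 and -0.24 to 0.44 for IER5L. IER2 between lines with doxycycline was -0.0246 with median-ratio scaling, -0.0475 with library size alone, -0.00638 with no filter, -0.0574 with at least 10 counts in every library, -0.0244 with DESeq2, -0.0178 with only the groups compared, -0.0706 with counts halved and -0.0747 to 0.0332 when 1 library was left out. The cause was not tested.

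With no limit on the fold change, members higher were 7 in EW8 and 6 in TC71, members with a lower difference of responses 4, and members lower between lines 2 with vehicle and 3 with doxycycline. In the lists the same choice gave 4 higher and 4 lower co-factors in EW8 and 4 lower in TC71, 1 other immediate early gene lower in EW8, and 17 higher and 1 lower SRF and MRTF targets in EW8 and 2 lower in TC71. Library size alone gave 1 other immediate early gene lower in EW8. In TC71 1 was lower both with at least 10 counts in every library and with only the groups compared. Members lower in TC71 with vehicle were 0 with at least 10 counts in every library and with counts halved, and 0 to 1 when 1 library was left out, the one concerned being NR4A3. The difference of the responses keeps all 12 libraries, so it has no value with only the groups compared.

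Leaving out each library in turn gave 3 to 5 members called higher in EW8 and 2 to 3 in TC71, and EGR1 between 1.40 and 1.80 in EW8 and between -1.67 and -1.24 in TC71. The deviations of same-numbered libraries had correlations of -0.0282 to 0.00977, and those of other pairs -0.0296 to 0.0457. With so few libraries per group this cannot exclude that replicates were paired. With the replicate block, members called higher were 4 in EW8 and 2 in TC71, and the IER5 difference of -0.40 no longer passed (adjusted p = 0.0598, edgeR), the one adjusted p of the 10 genes that crossed the threshold with the block. EGR3 and NR4A2 in EW8 rest on 10 to 58 counts a library, which limits their precision.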
